A study of Mus musculus with 45 samples.

Results

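The autophagy genes described here are the 38 genes of the expression table whose symbol starts with Atg and a digit, together with 20 genes added by name: Becn1, Map1lc3a, Map1lc3b, Gabarap, Gabarapl1, Gabarapl2, Sqstm1, Nbr1, Optn, Ulk1, Ulk2, Rb1cc1, Pik3c3, Pik3r4, Uvrag, Ambra1, Wipi1, Wipi2, Tfeb and Vcp. The symbol pattern gave 18 of the 38, and the table holds 15897 genes in all. They were chosen by name and symbol pattern, with earlier results of these data known. Each of the 38 was measured in every mouse.

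Hippocampal poly(A) RNA was sequenced from 45 female C57Bl/6J mice, and each mouse is a separate animal. AwTw mice carried no transgene. A+Tw mice carried APPswe/PS1dE9, a mouse/human chimeric amyloid precursor protein with the Swedish mutation and human presenilin 1 lacking an exon, driven by the mouse prion protein promoter. AwT+ mice carried human Tau P301L driven by the CaMKII promoter, and A+T+ mice, from a cross of these lines, carried both. At 7 months of age the mice went on the typical western diet (TWD, 21% fat, 0.15% cholesterol and 35% sucrose) or stayed on standard chow (STD, 5% fat and 0% cholesterol), and tissue was taken at 13 months. STD and TWD groups held 6 and 6 AwTw mice, 6 and 6 AwT+ mice, 5 and 6 A+Tw mice, and 4 and 6 A+T+ mice. These mice model amyloid and neuronal tau pathology through transgenes, and the tissue is the whole hippocampus. The values therefore mix neurons, glia and vessels, and fewer cells of a type cannot be told apart from less RNA per cell. Markers of neurons, astrocytes, oligodendrocytes and microglia had median levels between the 82.8th and the 98.8th percentile of all genes. The 8 markers of the hippocampal formation stood at the 89.8th percentile, endothelial markers at 58.5 and choroid plexus markers at 35.1.

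Macroautophagy encloses cytoplasm in a double membrane, the autophagosome, and delivers it to lysosomes. The ULK kinase complex starts the process, the class III PI3-kinase complex around Becn1 and Pik3c3 marks the membrane with PI3P, and Atg9 vesicles and Atg2 proteins supply lipid. Ubiquitin-like conjugation then fixes LC3 and GABARAP proteins to phosphatidylethanolamine in the growing membrane, where cargo receptors such as p62 (encoded by Sqstm1) bind them. Neurons depend on this route, because they do not divide and cannot dilute aggregated protein or damaged organelles. Messenger RNA levels, as measured here, do not measure the flow of cargo through it.

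Coding sequences of the genes on which the diet results turn are shown first, because the diet differences moved with base composition. Each line gives the first 120 coding bases of the longest complete coding transcript in GENCODE M21 (GRCm38), with G and C in capitals. Map1lc3a (chr2:155276297-155278073, plus strand), Sqstm1 (chr11:50199366-50210827, minus strand) and Gabarap (chr11:69991143-69994951, plus strand) were higher on TWD. Atg4c (chr4:99193934-99259787, plus strand) was lower.
Map1lc3a: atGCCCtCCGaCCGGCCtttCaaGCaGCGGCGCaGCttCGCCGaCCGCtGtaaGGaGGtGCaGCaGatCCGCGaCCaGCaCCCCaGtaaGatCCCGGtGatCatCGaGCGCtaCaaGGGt
Sqstm1: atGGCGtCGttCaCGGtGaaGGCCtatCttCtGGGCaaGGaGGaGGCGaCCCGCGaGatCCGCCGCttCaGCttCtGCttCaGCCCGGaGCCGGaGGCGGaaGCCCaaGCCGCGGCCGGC
Gabarap: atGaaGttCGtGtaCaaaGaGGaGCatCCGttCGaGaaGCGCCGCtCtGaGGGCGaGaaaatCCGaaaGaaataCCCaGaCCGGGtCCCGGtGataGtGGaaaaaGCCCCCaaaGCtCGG
Atg4c: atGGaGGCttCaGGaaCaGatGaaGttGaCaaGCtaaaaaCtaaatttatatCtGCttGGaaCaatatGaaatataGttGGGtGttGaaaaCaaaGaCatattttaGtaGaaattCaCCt

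Of these 120 bases, G and C made up 76 in Map1lc3a, 82 in Sqstm1 and 65 in Gabarap, against 38 in Atg4c. The other genes do not divide in this way: Ulk2, also lower, had 73, and Map1lc3b, which did not pass, had 87. Over the whole coding sequence the GC content was 57.4% for Map1lc3a, 58.1% for Sqstm1, 47.7% for Gabarap and 42.6% for Atg4c, with 49% for Ulk2 and 64.4% for Map1lc3b. Among the longest transcripts of the 38 genes, GC content ran from 39.1% for Rb1cc1 to 63.2% for Tfeb, with a median of 50.5% against 49.8% over 15695 genes with a symbol.

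Promoters were read because Tfeb, a member itself, is a transcription factor of autophagy and lysosome genes and binds an E-box motif. RefSeq windows of 250 bases before the transcription start (GRCm38.p6) were found for 32 of the 38 genes. They were not found for Pik3c3, Rb1cc1, Atg12, Atg16l1, Map1lc3a and Becn1. The core E-box CACGTG, a palindrome and so the same on both strands, occurs in the windows of 3 genes, Atg3, Atg5 and Atg7, and in 6.02% of all 32851 promoter windows. In the lines that follow the E-box is in capitals, and its first copy begins 94, 14 and 132 bases before the start. The windows are chr16:45158708-45158767, chr10:44268298-44268338 and chr6:114670937-114670996 on the plus strand. The last lies inside the Atg7 gene as GENCODE draws it, between exons.
Atg3: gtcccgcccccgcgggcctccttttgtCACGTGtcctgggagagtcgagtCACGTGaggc
Atg5: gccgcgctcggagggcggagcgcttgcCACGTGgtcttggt
Atg7: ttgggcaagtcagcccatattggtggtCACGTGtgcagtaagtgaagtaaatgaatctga

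The longer CLEAR element of lysosomal genes, which contains the E-box, is in 0.24% of all windows and the Foxo motif GTAAACA in 3.17%, both strands read, and no member's window holds either. The GC box GGGCGG is in 32.7% of all windows and in those of 20 of the 32 genes. The Sqstm1 window (chr11:50210831-50211070, minus strand, ending 11 bases before the start) is shown as the promoter of the gene with the smallest p for diet, with GC boxes on either strand in capitals. These matches describe letters only.
Sqstm1: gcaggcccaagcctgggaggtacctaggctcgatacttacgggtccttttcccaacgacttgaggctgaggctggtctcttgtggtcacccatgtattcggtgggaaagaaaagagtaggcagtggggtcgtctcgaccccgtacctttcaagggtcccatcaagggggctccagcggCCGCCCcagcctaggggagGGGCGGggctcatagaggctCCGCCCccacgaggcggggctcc

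The deposited values are variance-stabilized counts on a log2 scale, with the labelled batch removed, and the labels do not say what a batch was (batch 0, 20 mice, and batch 1, 25 mice). The study's methods give a minimum depth per sample, but the values do not give the depth of each library. Errors come from the spread between mice. The strongest direction of variation left within groups, the first residual component, held 41.3% of the residual variance. It moved with base composition. For each mouse, the rank correlation across genes between its deviation from the mean and transcript GC content ran from -0.65 to 0.71. Its mean was -0.21 on STD and 0.12 on TWD (two-sided permutation test within batches, p = 0.00755, n = 45). In batch 1 the means were -0.30 and 0.23 (permutation test, p = 0.00963, n = 25), and in batch 0 they were -0.08 and 0.01 (permutation test, p = 0.494, n = 20). Replicate 1 of A+T+/TWD and replicate 3 of AwTw/TWD, both of batch 1, lay farthest out on the component. Diet results are therefore also given per batch, with the component in the model, and without these mice.

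Per kilobase of longest transcript, the LC3 and GABARAP genes and Sqstm1 were among the most abundant of the 38. Gabarapl1, a GABARAP protein common in brain, came first at 12.50 (deposited log2 value minus log2 of the length in kilobases, mean of 45 mice). Sqstm1 followed at 11.52, Gabarap at 11.10 and Map1lc3a at 10.89. Vcp, an ATPase that extracts ubiquitinated proteins, stood at 10.56, Gabarapl2 at 9.84 and Map1lc3b at 9.74. Atg4a, an LC3-processing protease, was lowest at 4.79, followed by Atg16l2 at 4.94 and Atg9b at 5.07. Using the median transcript length of each gene, Gabarapl1 stood at 13.84, Sqstm1 at 13.01 and Map1lc3b at 10.45, so these levels depend on the length chosen. The values of Atg2a and Atg4a are identical to those of another gene of the table and may not be theirs alone.

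The 38 genes differed widely in their spread among mice of one group. The residual standard deviation was lowest for Vcp at 0.0975 and highest for Rb1cc1 at 0.714, with a median of 0.197 (0.263 over genes with a symbol). With the first residual component in the model it fell by over 40% in 10 of the 38 genes and by under 10% in 15. Rb1cc1 went from 0.714 to 0.252, Map1lc3a from 0.322 to 0.116, Sqstm1 from 0.26 to 0.1 and Atg4c from 0.356 to 0.148. Atg7, Ulk1 and Atg14 hardly moved, with 0.194 and 0.197, 0.192 and 0.194, and 0.147 and 0.149. Genes of one pathway thus shared this variation to unequal extents.

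**Figure D1:**
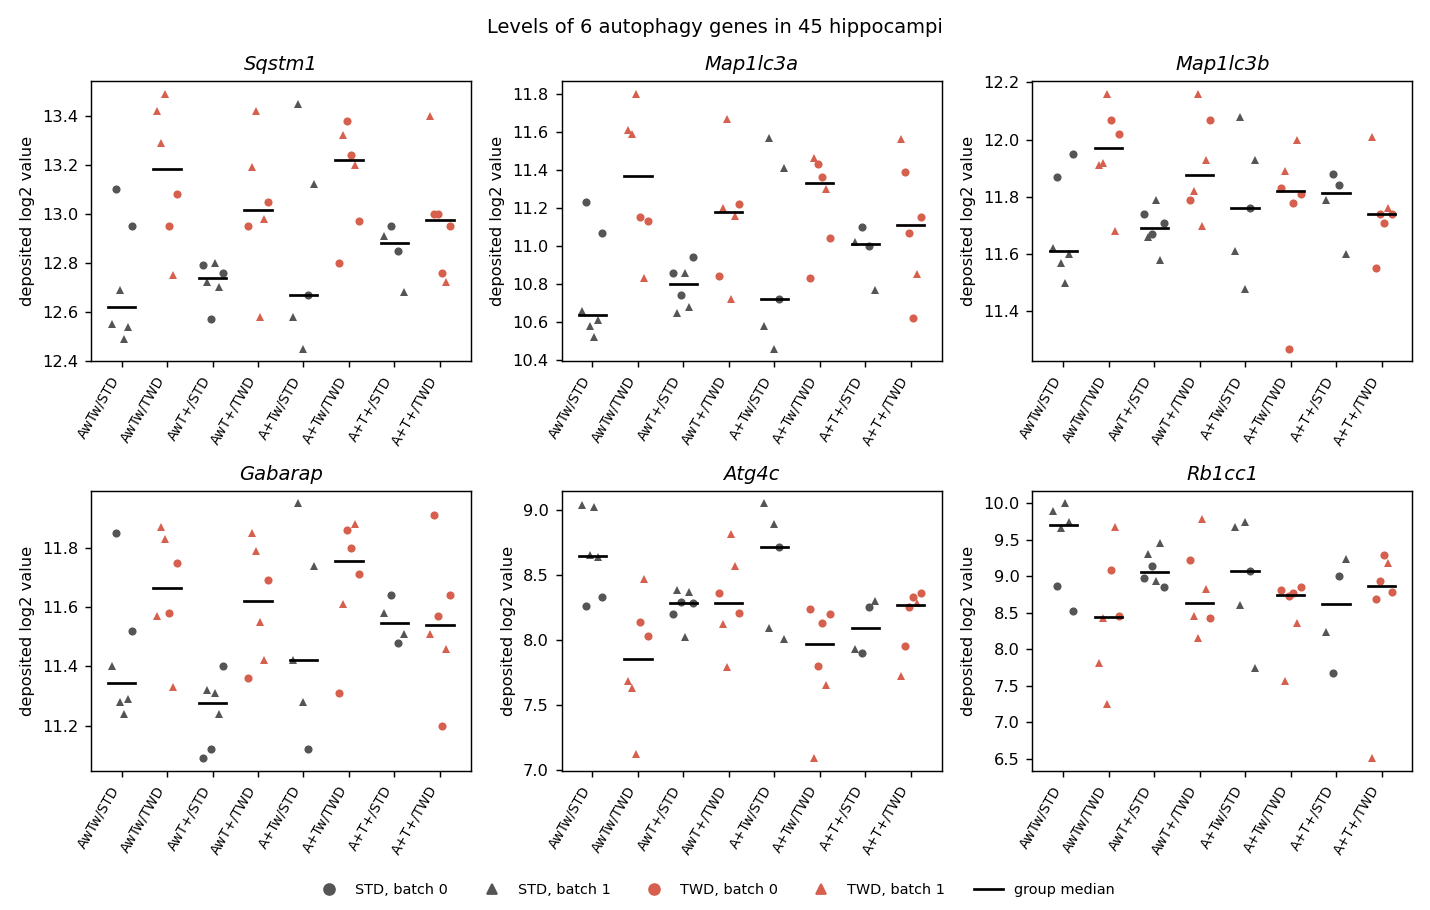
Deposited log2 values (vertical axes) of Sqstm1, Map1lc3a, Map1lc3b, Gabarap, Atg4c and Rb1cc1 in each of the 45 mice, by genotype and diet, with circles for batch 0, triangles for batch 1 and lines at group medians. STD and TWD mice overlap for every gene when genotypes are pooled, and the AwTw medians of Sqstm1 are 12.62 on STD and 13.18 on TWD.

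The comparison of diets irrespective of genotype asked which members differed between 24 TWD and 21 STD mice. At an adjusted p of 0.05 (limma over all 15897 genes, Benjamini-Hochberg), 8 of the 38 genes were higher and 2 were lower on TWD. That is 26.3% of the members, where 29.4% of all genes passed in either direction, 16% higher and 13.4% lower. The share among autophagy genes is thus near that of the whole table, as is the count at an unadjusted p under 0.05, 16 of 38 against 44.1% of all genes. The median log2 difference of the 38 was 0.03, against -0.00 over all genes. The 10 genes came from 5 of the 7 role groups. None of the 10 passed in batch 0 alone, where 0 of all genes passed, or with the first residual component in the model (limma, lowest adjusted p of a member 0.82 and 0.578). At an unadjusted p under 0.05 these fits held 0 members (5.55% of all genes) and 4 members (8.06%).

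The LC3 and GABARAP proteins, which are attached to the autophagosome membrane, formed the group with the highest share: 4 of 5 were higher and 0 were lower. Over all genes 16% were higher and 13.4% lower, the background for every role group below. Role groups are small, their genes share the same mice, and no set test was run. Map1lc3a, encoding LC3A, ran from 10.46 over a median of 10.77 to 11.57 on STD, and from 10.62 over 11.18 to 11.80 on TWD. The ranges overlapped, and the TWD median lay above that of STD. Its log2 difference was 0.35 ± 0.0939 (SE, adjusted p = 0.0157 by limma). Gabarap ran from 11.09 over 11.40 to 11.95 on STD and from 11.20 over 11.62 to 11.91 on TWD, a log2 difference of 0.21 ± 0.066 (SE, limma adjusted p = 0.0219). The highest single value of Gabarap was in an STD mouse. Gabarapl1 ran from 13.03 over 13.25 to 13.65 on STD and from 13.14 over 13.43 to 13.65 on TWD (log2 difference 0.16 ± 0.0518, limma adjusted p = 0.0253). Gabarapl2 (GATE-16) ran from 10.32 over 10.51 to 10.94 on STD and from 10.46 over 10.64 to 10.85 on TWD (log2 difference 0.12 ± 0.0443, limma adjusted p = 0.0353).

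Map1lc3b, encoding LC3B, the form most often blotted as an autophagosome marker, did not pass. It ran from 11.48 over 11.71 to 12.08 on STD and from 11.27 over 11.83 to 12.16 on TWD. Its log2 difference was 0.13 with a 95% interval from 0.01 to 0.24 (limma adjusted p = 0.0844). This interval overlaps that of Gabarapl2, 0.03 to 0.21. Differences between genes were not tested, here or where intervals are set side by side below. The exons of Gabarapl1 overlap those of an opposite-strand gene over 570 bases and those of Map1lc3b over 58 bases. Libraries were stranded, and whether strand was used in counting is not given in the sources used here.

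Among the cargo receptors, which tie ubiquitinated cargo to LC3, Sqstm1 was higher on TWD and Nbr1 and Optn did not pass. Sqstm1 ran from 12.45 over 12.72 to 13.45 on STD and from 12.58 over 13.02 to 13.49 on TWD. Its log2 difference was 0.31 ± 0.0759 (SE, limma adjusted p = 0.0157), the smallest unadjusted p of the 38 (2.31e-04). Nbr1 had a log2 difference of 0.03 (95% interval -0.10 to 0.16) and Optn one of -0.03 (-0.13 to 0.08). The Sqstm1 interval, 0.15 to 0.46, overlaps that of Nbr1 at its edge and does not overlap that of Optn. Exons of Sqstm1 overlap Mrnip on the opposite strand over 580 bases.

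In the ULK initiation complex the 5 genes split. Atg101, which stabilizes Atg13, ran from 8.54 over 8.94 to 9.74 on STD and from 8.89 over 9.25 to 9.95 on TWD, a log2 difference of 0.29 ± 0.0863 (SE, limma adjusted p = 0.0172). Ulk2, a kinase of the complex, ran from 9.39 over 10.04 to 10.26 on STD and from 8.80 over 9.89 to 10.30 on TWD. It was lower by a log2 difference of -0.27 ± 0.0935 (SE, limma adjusted p = 0.0314). The lowest TWD mice of Ulk2 lay below every STD mouse, while the upper ends met. Rb1cc1, the scaffold FIP200, had the largest difference of all 38, -0.47, and also the largest error (0.206, limma adjusted p = 0.0753). Its values ran from 7.68 over 9.07 to 10.00 on STD and from 6.51 over 8.75 to 9.78 on TWD, and its exons overlap an opposite-strand gene over 558 bases. Ulk1 and Atg13 had log2 differences of -0.10 (-0.22 to 0.01) and -0.01 (-0.10 to 0.09).

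Of the 6 genes of the class III PI3-kinase complexes, only Becn1, the Beclin 1 subunit, passed, where 29.4% of all genes did. It ran from 10.35 over 10.58 to 10.78 on STD and from 10.38 over 10.67 to 11.02 on TWD (log2 difference 0.13 ± 0.0474, limma adjusted p = 0.0336). The lipid kinase Pik3c3 itself had a log2 difference of -0.13 (-0.25 to -0.02, limma adjusted p = 0.0719), of the opposite sign. Pik3r4, Uvrag, Ambra1 and Atg14, regulatory subunits and partners, lay between -0.01 and 0.04. Becn1 exons overlap Cntd1 on the opposite strand over 3104 bases.

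None of the 6 genes for lipid supply and PI3P binding passed, and their log2 differences ran from -0.06 for Wipi1 to 0.13 for Atg9a, the lipid scramblase of the vesicles that seed autophagosomes (limma adjusted p = 0.0963). Among the 11 genes of conjugation and the Atg4 proteases, 1 was higher and 1 lower, and both are Atg4 proteases, which trim LC3 and GABARAP before conjugation and release them afterwards. Atg4d ran from 8.13 over 8.42 to 8.90 on STD and from 8.23 over 8.57 to 9.21 on TWD (log2 difference 0.19 ± 0.0708, limma adjusted p = 0.0442). Atg4c ran from 7.90 over 8.30 to 9.05 on STD and from 7.09 over 8.13 to 8.81 on TWD (log2 difference -0.37 ± 0.119, limma adjusted p = 0.0231). Their 95% intervals, 0.04 to 0.33 and -0.61 to -0.13, do not overlap. Atg4a and Atg4b had log2 differences of -0.12 and -0.05 and did not pass. Exons of Atg4d overlap Kri1 on the opposite strand over 1405 bases, and those of Atg9a overlap Gm29253 on the same strand over 1832 bases.

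The genes of the conjugation systems, enzymes, substrates and scaffolds, Atg3, Atg5, Atg7, Atg10, Atg12, Atg16l1 and Atg16l2, did not pass. Atg3, the E2-like enzyme for LC3, had a log2 difference of -0.18 (-0.34 to -0.01, limma adjusted p = 0.0878). Atg5 and Atg7, the genes most often deleted to block autophagy, had 0.07 (-0.01 to 0.15) and 0.05 (-0.07 to 0.17). Tfeb had a log2 difference of 0.15 (-0.03 to 0.33) and Vcp one of 0.08 (0.01 to 0.15, limma adjusted p = 0.0728). The 3 genes with an E-box in the promoter window were among the 28 members that did not pass, and only 32 of the 38 genes had a window. A part of the E-box in the diet differences was not tested.

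**Figure D2:**
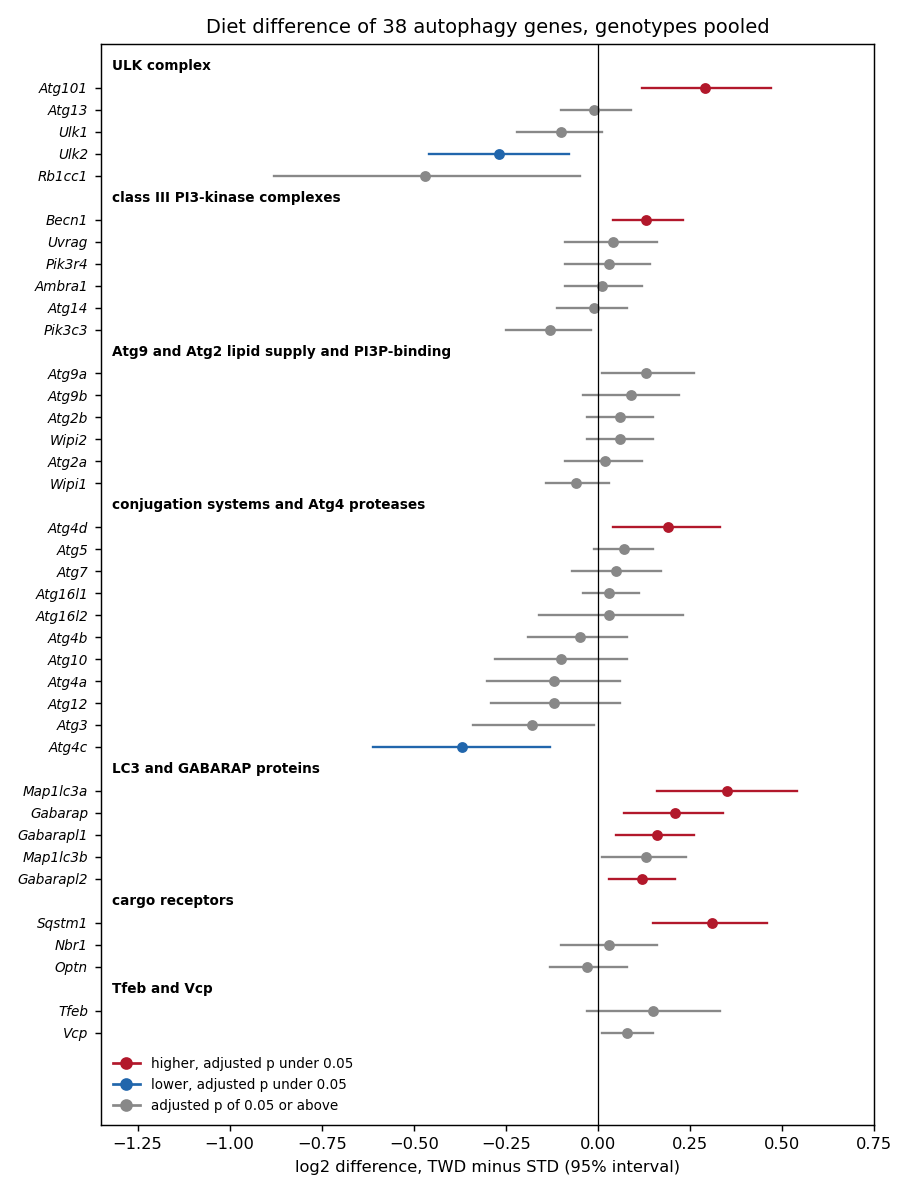
Log2 difference between TWD and STD mice, genotypes pooled (horizontal axis, bars are 95% intervals), for the 38 genes by role. Red marks the 8 higher genes, blue the 2 lower ones and grey the 28 that did not pass.

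Base composition moved with the diet differences. Across the 15695 genes with a symbol, the rank correlation between the log2 difference and the GC content of the longest transcript was 0.621, and across the 38 genes it was 0.57. Genes are not independent replicates, and the mice are shared, so these are descriptions. Genes under 40% GC had a median log2 difference of -0.28, with 30.1% lower and 1.5% higher, and genes over 55% had 0.14, with 0.869% lower and 31.6% higher. The 8 higher members ran from 45% to 63.1% GC with a median of 53.4%, the 2 lower ones had 44% and 47%, and the 28 others had a median of 50.4%. The 8 higher members also had shorter transcripts, with a median of 1748 bases against 4020 in the 28 genes that did not pass. Becn1 (45%) and Gabarapl2 (45.3%) were higher and had a GC content below the median of all genes. Of all genes with 45 to 50% GC, 9.24% were higher and 17.8% lower. The part of base composition in these results was tested only through the adjusted values in the next paragraph.

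With a trend on length and GC content removed from each mouse, 8 members passed, at a background of 13.4% of all genes. Sqstm1 (log2 difference 0.19, limma adjusted p = 0.02), Map1lc3a (0.12, 0.0241), Becn1 (0.29, 0.0265), Gabarapl2 (0.16, 0.0321) and Atg4d (0.19, 0.0468) were still higher. Atg5 and Atg2b were also called higher and Ulk1 lower there. Atg101, Gabarap, Gabarapl1, Atg4c and Ulk2 no longer passed (0.09, 0.09, 0.02, -0.24 and -0.12). With the first residual component in the model, the log2 difference was 0.09 for Sqstm1 (95% interval 0.02 to 0.16, limma adjusted p = 0.578) and 0.08 for Map1lc3a (0.01 to 0.16, limma adjusted p = 0.594). Atg4c went to -0.06 (-0.20 to 0.08) and Rb1cc1 to 0.13 (-0.03 to 0.29). The component was estimated within groups but its scores differ between diets, so this model also takes up diet differences that lie along it.

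**Figure D3:**
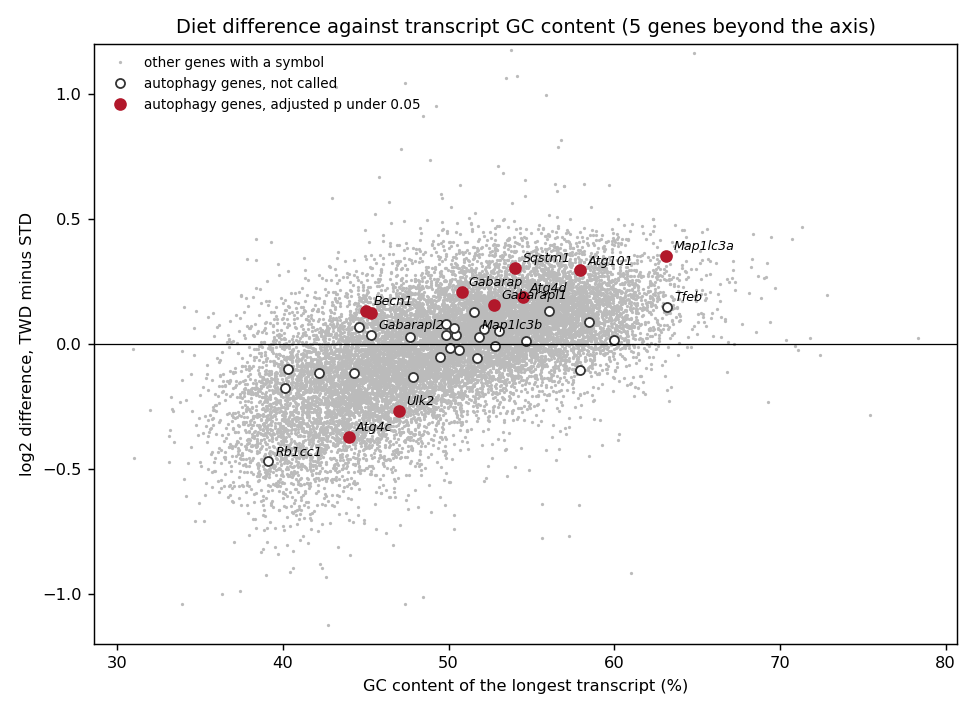
Log2 difference between TWD and STD mice (vertical axis) against the GC content of the longest transcript in percent (horizontal axis) for genes with a symbol (grey), the 10 called autophagy genes (red) and the 28 others (open). The cloud rises with GC content, from a median of -0.28 under 40% to 0.14 over 55%, and the members lie within it.

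By batch, the differences were mainly in batch 1. There 15 members passed (10 higher, 5 lower), at a background of 40.9% of all genes, and Map1lc3b (log2 difference 0.25, limma adjusted p = 0.0176) and Rb1cc1 (-0.99, 0.0195) were among them. Sqstm1 had 0.43 ± 0.118 (SE) in batch 1 and 0.17 ± 0.0829 in batch 0, and Map1lc3a had 0.55 ± 0.14 and 0.13 ± 0.104. Gabarap was closest between the batches, with 0.24 ± 0.0819 and 0.19 ± 0.108. Atg4d had 0.39 ± 0.1 and -0.05 ± 0.0753, and Rb1cc1 -0.99 ± 0.308 and 0.10 ± 0.168. In batch 0 none of the 10 called genes passed (limma adjusted p from 0.82 to 0.877). There 24 of all 38 members and 9 of the 10 had the pooled sign, which the same mice helped to set. The difference between batches was not tested.

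Without the pair of mice farthest out on the first residual component, 0 of the 38 passed, and 1 gene of the table did (limma). At an unadjusted p under 0.05 there were 11 members and 33.1% of all genes. The differences themselves moved less: Sqstm1 had 0.27 (95% interval 0.11 to 0.42, limma adjusted p = 0.0555), Map1lc3a 0.30 (0.12 to 0.49, 0.0555), Gabarap 0.21 (0.07 to 0.34, 0.0578) and Atg4c -0.31 (-0.54 to -0.07, 0.0748). Leaving out each mouse in turn, Sqstm1, Map1lc3a, Gabarap, Gabarapl1, Atg101 and Atg4c passed in 45 of 45 fits, Ulk2 in 42, Gabarapl2 in 36, Becn1 in 35 and Atg4d in 24. Map1lc3b passed in 2 and Rb1cc1 in 5. After quantile normalization 7 members passed, at a background of 30.4% of all genes.

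**Figure D4:**
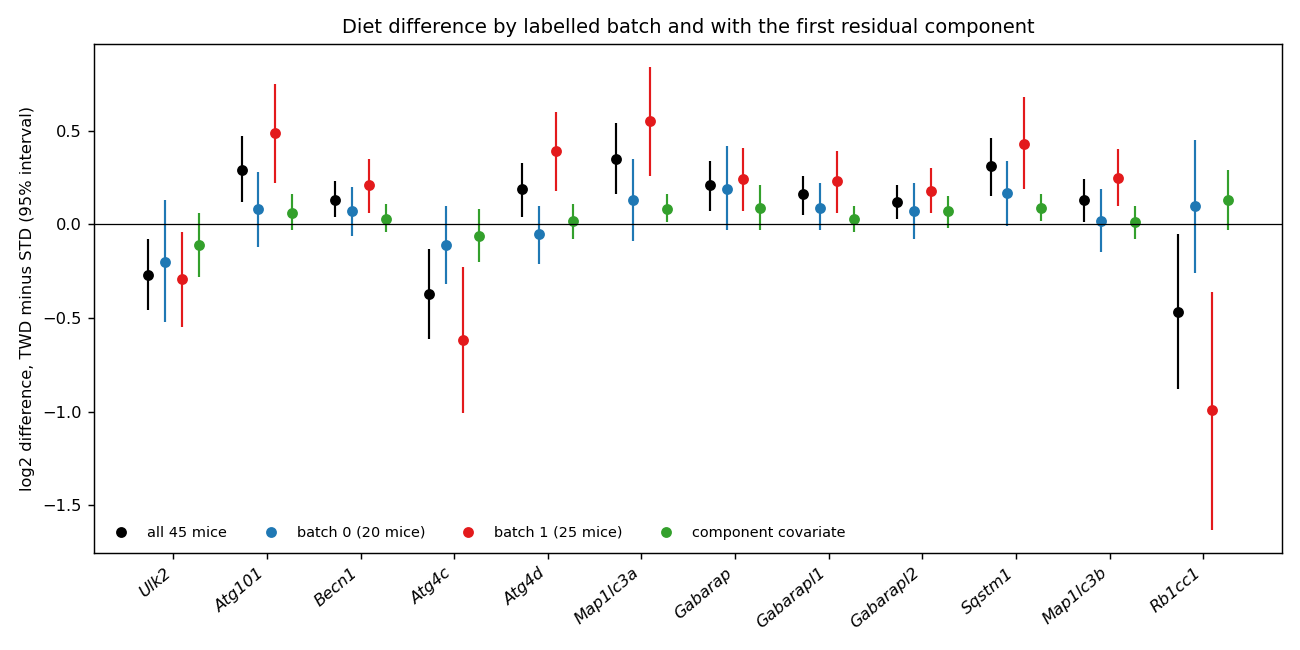
Log2 difference between TWD and STD mice (vertical axis, bars are 95% intervals) for the 10 called genes, Map1lc3b and Rb1cc1, in all mice, in batch 0, in batch 1 and with the first residual component in the model. Batch 1 values lie farthest from 0 for each gene shown, as for Map1lc3a with 0.55 against 0.13 in batch 0.

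Markers of cell types were counted in the same pooled comparison, in which 16% of all genes were higher and 13.4% lower. There 5 of 10 microglia markers were higher and 1 lower, 3 of 6 oligodendrocyte markers were higher, and of 7 neuron markers 1 was higher and 3 were lower. Of 7 astrocyte markers 2 were higher and 3 lower, of 5 endothelial markers 1 was higher and 1 lower, and of 12 choroid plexus markers and 8 markers of the hippocampal formation 0 passed (limma, 2 of each list at an unadjusted p under 0.05). The mean microglia score (standardized log2 values) ran from -1.31 to 1.40 on STD and from -0.84 to 1.29 on TWD, and that of neurons from -0.56 to 1.06 and from -1.82 to 1.17. The part of cell composition in the autophagy differences was not tested, except that with the choroid plexus score in the model 11 members passed at a background of 32.5%, with 0.30 for Sqstm1 and 0.36 for Map1lc3a.

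Within single genotypes, members passed in AwTw mice only. There 4 of 38 passed (10.5%, against 9.35% of all genes), 3 higher (6.01% of all genes) and 1 lower (3.34%), and each had an adjusted p of 0.0498 (limma). An unadjusted p under 0.05 was found for 13 members and 40.2% of all genes. Map1lc3a ran from 10.52 over 10.63 to 11.23 on STD and from 10.83 over 11.37 to 11.80 on TWD, a log2 difference of 0.58 ± 0.18 (SE). Sqstm1 ran from 12.49 over 12.62 to 13.10 and from 12.75 over 13.18 to 13.49, a log2 difference of 0.44 ± 0.147. In both genes the pair of highest STD mice lay inside the TWD range. Atg101 ran from 8.54 over 8.82 to 9.48 and from 8.89 over 9.46 to 9.95 (log2 difference 0.50 ± 0.166).

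Atg4c was lower in TWD-fed AwTw mice, with 8.26 over 8.65 to 9.04 on STD and 7.12 over 7.86 to 8.47 on TWD (log2 difference -0.81 ± 0.2). Its ranges overlapped between 8.26 and 8.47. Rb1cc1 had the largest difference in AwTw, -1.0 (95% interval -1.79 to -0.20, limma adjusted p = 0.0654), with 8.53 over 9.70 to 10.00 on STD and 7.25 over 8.44 to 9.68 on TWD. Gabarapl1, Map1lc3b, Gabarap and Gabarapl2 had 0.27, 0.28, 0.23 and 0.13 and did not pass (limma adjusted p from 0.0565 to 0.246). These AwTw calls sit at the threshold: 0 members passed in 32 of 45 fits without 1 mouse, 4 in 5 and more in 8, with a highest count of 14 without replicate 5 of AwTw/TWD. The whole table moved with them, with 0% of all genes called in the 32 fits, 17.3% to 38.2% in the 8, and 38.2% in the fit with 14 members. In batch 0 alone, which held only 2 STD and 2 TWD mice of AwTw, Map1lc3a and Sqstm1 had -0.01 each and Atg101 -0.12.

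In AwT+ mice 0 of 38 members and 0% of all genes passed (limma), and 6 members and 7.44% of all genes had an unadjusted p under 0.05. Gabarapl2 ran from 10.40 over 10.42 to 10.52 on STD and from 10.59 over 10.67 to 10.84 on TWD, so its groups did not overlap, with a log2 difference of 0.25 (0.08 to 0.42, limma adjusted p = 0.646). Gabarap ran from 11.09 over 11.27 to 11.40 and from 11.36 over 11.62 to 11.85, a log2 difference of 0.36 (0.11 to 0.61, 0.646). Map1lc3a, Sqstm1, Map1lc3b and Gabarapl1 had 0.34, 0.30, 0.22 and 0.21. Atg4c had 0.07 (-0.34 to 0.48) there.

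In A+Tw mice 0 of 38 passed, as 0% of all genes, and 1 member, Atg4c, had an unadjusted p under 0.05 (0.00128, limma adjusted p = 0.706), against 4.43% of all genes. Atg4c values on STD were 8.01, 8.09, 8.71, 8.89 and 9.05, and on TWD they ran from 7.09 over 7.97 to 8.24, a log2 difference of -0.75 (-1.19 to -0.31). Sqstm1 values on STD were 12.45, 12.58, 12.67, 13.12 and 13.45, and on TWD they ran from 12.80 over 13.22 to 13.38 (log2 difference 0.31, -0.01 to 0.63). The STD mice thus spanned the TWD range. Map1lc3b and Gabarapl1 had -0.02 and 0.08.

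In A+T+ mice 0 of 38 passed, again as 0% of all genes, and 1 member, Optn, had an unadjusted p under 0.05 (log2 difference -0.22, -0.43 to -0.01, limma adjusted p = 0.998), against 2.57% of all genes. Sqstm1 values on STD were 12.68, 12.85, 12.91 and 12.95, and on TWD they ran from 12.72 over 12.97 to 13.40, a log2 difference of 0.13 (-0.20 to 0.46). Map1lc3a had 0.14, Gabarap -0.00, Gabarapl1 0.03, Gabarapl2 0.03 and Map1lc3b -0.03. Atg4c had 0.03 and Rb1cc1 0.01, the latter with an interval from -0.89 to 0.90.

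**Figure D5:**
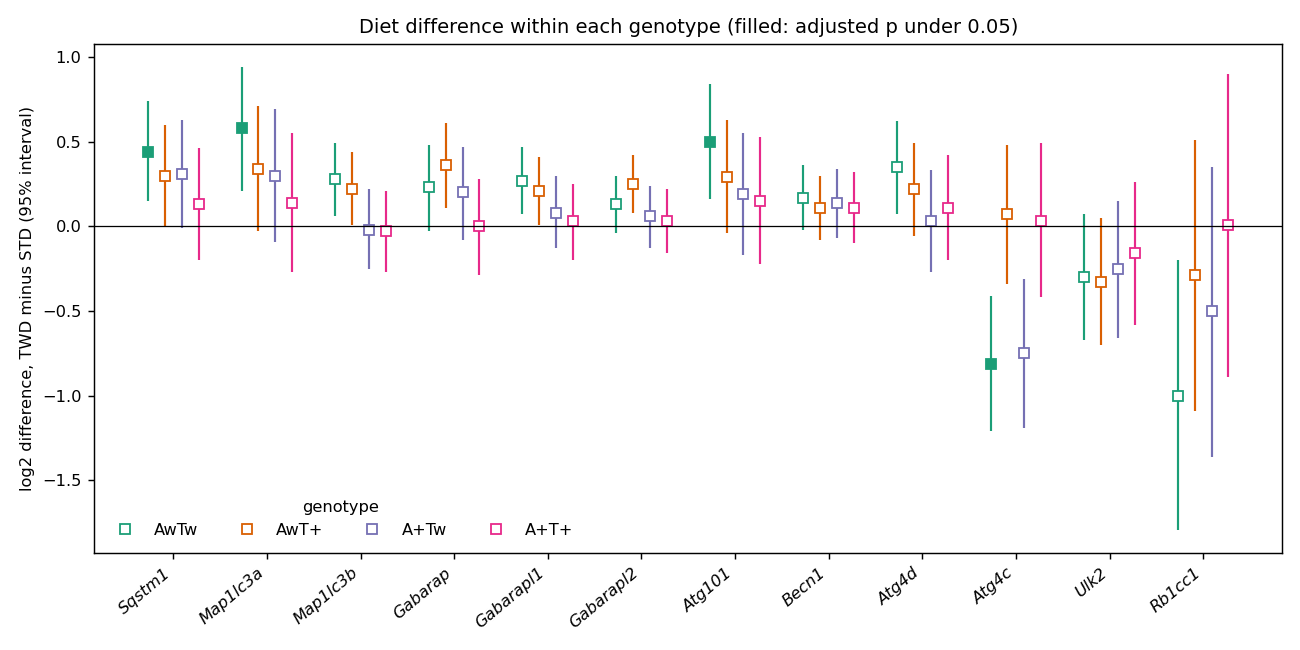
Log2 difference between TWD and STD mice within each genotype (vertical axis, bars are 95% intervals) for 12 autophagy genes, with filled squares for an adjusted p under 0.05. Filled squares occur in AwTw only, for Sqstm1, Map1lc3a, Atg101 and Atg4c. Intervals of the other genotypes mostly overlap those of AwTw, but for Atg4c the AwT+ interval lies above that of AwTw mice.

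The difference of diet effects between genotypes was tested by interaction. For the mean diet effect of the 3 transgenic genotypes minus that of AwTw, 0 of 38 members and 0% of all genes passed (limma), and 3 members had an unadjusted p under 0.05, against 7.07% of all genes. Atg4c had an interaction of 0.59 (95% interval 0.12 to 1.07), Atg12, the ubiquitin-like protein joined to Atg5, had 0.43 (0.05 to 0.81), and Atg5 itself had 0.20 (0.02 to 0.37), each with a limma adjusted p of 0.557. For Sqstm1 and Map1lc3a the interaction was -0.20 (-0.55 to 0.15) and -0.32 (-0.74 to 0.11). Of the single transgenic genotypes against AwTw, AwT+ had 3 members under an unadjusted p of 0.05 (4.02% of all genes), A+Tw 0 (2.21%) and A+T+ 2 (6.3%), with lowest limma adjusted p of 0.78, 0.919 and 0.56. A diet effect limited to AwTw mice was therefore not shown.

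The amyloid transgenes left no member past the threshold. Comparing 21 A+ with 24 Aw mice, 0 of 38 members passed and 0 had an unadjusted p under 0.05, where 3.77% of all genes passed and 15.1% had an unadjusted p under 0.05 (limma). Log2 differences ran from -0.32 for Rb1cc1 (95% interval -0.74 to 0.09) to 0.14 for Tfeb (-0.04 to 0.33). Sqstm1 ran from 12.45 over 12.95 to 13.45 in A+ and from 12.49 over 12.88 to 13.49 in Aw, a log2 difference of 0.05 (-0.11 to 0.21). Map1lc3b had -0.05 (-0.16 to 0.06), Gabarapl1 -0.02 (-0.13 to 0.08) and Becn1 -0.02 (-0.12 to 0.08). Map1lc3a, Gabarap and Gabarapl2 had 0.06, 0.09 and 0.04. Interval bounds of the 5 LC3 and GABARAP genes ran from -0.16 to 0.25, and those of Sqstm1 and Becn1 lay within this span. Taken gene by gene, these 95% intervals reach up to 0.25 on the log2 scale. They hold for this fit only and are no joint bound over the genes.

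The tau transgene gave a like result. Between T+ and Tw mice 0 of 38 members passed, where 0.0189% of all genes did, and Atg7, the E1-like enzyme, alone had an unadjusted p under 0.05 (log2 difference -0.14, -0.27 to -0.02, limma adjusted p = 0.932), against 5.15% of all genes. Sqstm1 had -0.08 (-0.23 to 0.08) and Map1lc3a -0.07 (-0.27 to 0.12). When each transgenic genotype was set against AwTw on the same diet, 0 members passed in all 6 comparisons (limma). On STD, 0% of all genes passed in AwT+ mice, 0.925% in A+Tw mice and 1.32% in A+T+ mice, and on TWD the shares were 0%, 0.824% and 0.73%. An unadjusted p under 0.05 on STD was found for 1, 1 and 5 members (2.39%, 5.66% and 14.3% of all genes), and on TWD for 1, 1 and 1 (3.04%, 5.2% and 7.76%). The 5 members of A+T+ mice on STD were Rb1cc1 (-0.93), Atg4c (-0.58), Atg12 (-0.43), Atg5 (-0.22) and Optn (0.21), with a lowest adjusted p of 0.227 (limma). The mean choroid plexus score was 1.00 in A+T+ and -0.36 in AwTw mice on STD. That of the hippocampal formation was -0.60 and 0.32. The part of tissue composition in these differences was not tested.

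The wider autophagy network comprised 59 further genes in 4 lists. In the pooled diet comparison 23 of the 59 passed, 9 higher and 14 lower, at the background of 29.4% of all genes. Of 14 genes of mTORC1 and AMPK, the nutrient and energy kinases upstream of the ULK complex, 2 were higher and 4 lower. Tsc2, an inhibitor of mTORC1, had 0.40 ± 0.0902 (SE, limma adjusted p = 0.0157) and its partner Tsc1 -0.18 ± 0.0517 (0.0159). The catalytic AMPK subunits Prkaa2 and Prkaa1 had -0.51 ± 0.143 (0.0159) and -0.39 ± 0.113 (0.0172), and the regulatory Prkag1 0.17 ± 0.0483 (0.0172). Deptor, an mTOR-binding inhibitor, had -0.48 ± 0.153 (0.0223). Subunits of one complex thus differed in sign, as in the ULK complex.

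Of 20 further machinery genes and selective receptors, 3 were higher and 7 lower. Pink1, the kinase that flags damaged mitochondria, had 0.23 ± 0.0705 (SE, limma adjusted p = 0.02), and the mitochondrial receptors Fundc1 and Bnip3 had -0.36 ± 0.129 (0.0333) and -0.15 ± 0.057 (0.045). Of 13 genes of fusion with lysosomes, 1 was higher and 2 lower: Ykt6 0.11, Vps41 -0.38 and Snap29 -0.20. Of 12 genes of MiT transcription factors and their targets, 3 were higher, Neu1 0.22, Atp6v0d1 0.18 and Hexa 0.18, and Lamp2 was lower at -0.39. These calls rest on the same mice as the pooled values of the 38 genes. None of them held in batch 0 alone or with the first residual component in the model, where 0 of all genes passed, and without both far mice 1 gene of the table passed (limma). Their relation to base composition was not tested.

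Some lysosomal genes were higher in A+ than in Aw mice. Of the 12 MiT genes 4 were higher, where 3.77% of all genes passed (limma): Ctsd, a lysosomal protease, by 1.14 ± 0.0926 (SE, adjusted p = 1.36e-12), Hexa by 0.59 ± 0.0646 (4.08e-09), Ctsb by 0.31 ± 0.064 (9.47e-04) and Lamp1 by 0.16 ± 0.0444 (0.0236). The other 8, among them Lamp2, Gla, Neu1, Mcoln1, Atp6v1h and Atp6v0d1, did not pass. In the 3 other lists 0 of 47 passed. In the same comparison 8 of 10 microglia markers were higher, with a mean score from 0.04 to 1.40 in A+ and from -1.31 to 0.01 in Aw mice. The part of microglia in the lysosomal differences was not tested.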

How the data were processed

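Hippocampal poly(A) RNA of 45 mice was sequenced in single reads. The authors trimmed reads (Trimmomatic 0.38), removed ribosomal and mitochondrial reads (Bowtie2 2.2.3), quantified transcripts (kallisto 0.44.0, mm10), dropped genes with a mean count of at most 10, applied the DESeq2 1.22.2 variance-stabilizing transformation and removed batch with limma 3.38.3. These deposited log2 values do not reveal the depth of a library, so precision is given by the spread between mice. Symbols, lengths and GC content came from GENCODE M21. The sequence of 1 further gene is not reported here.

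Groups came from the labels, since the study's methods count mice per genotype differently. Tests used limma 3.58.1 (R 4.3.3) on the whole table (mean trend, batch covariate, 8 groups, or genotype, diet and batch for the pooled diet effect), two-sided, adjusted over all genes by Benjamini-Hochberg. The steps were tested on simulated data in which each gene varied independently, without a component shared by genes. Differences of 0.5 log2 were recovered in 83% of changed genes for pooled diet and 87% for A+ against Aw. The share was 32% for diet in AwTw and 16% for the mean interaction. False calls made up 2.7% to 7.58%. Scores were compared with 100000 permutations in Python 3.11.15. In each comparison the called members (at most 12), the 5 LC3 and GABARAP genes, Sqstm1 and the 3 largest differences were to be named. Pathway partners named beside them were chosen after their values were seen. Members and lists were chosen with earlier results of these data known. Alternatives and mice left out are described under the closing section.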

Additional observations from a re-analysis of the deposited data

Results flagged for a closer look

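Among the 12 members named for diet, the highest or lowest mouse stood apart from the other mice of its group, by Dixon's gap criterion at the 95% level, in 9 of 96 gene and group combinations. Chance would flag about 4.8, and the genes share mice, so the flags are not independent.

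Replicate 1 of A+T+/TWD, one of the mice farthest out on the first residual component, was flagged for Rb1cc1, at 6.51 with the nearest mouse at 8.69, and for Atg4d, at 9.06 with the nearest at 8.59. Replicate 3 of A+Tw/TWD was flagged for Ulk2, at 8.80 against 9.57, and for Map1lc3b, at 11.27 against 11.78. Atg101 was highest in replicate 1 of AwT+/STD at 9.08 (nearest 8.95) and in replicate 3 of AwT+/TWD at 9.66 (nearest 9.24). Ulk2 was lowest in replicate 2 of A+T+/STD at 9.73 (nearest 9.99). Gabarapl2 was highest in replicate 2 of AwTw/STD at 10.91 (nearest 10.51) and in replicate 2 of A+Tw/STD at 10.94 (nearest 10.61). No interaction of diet and genotype passed the threshold for a member, so no difference of diet effects between genotypes is listed.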

How the results depend on the processing

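The pooled diet comparison was repeated under 12 other settings and the one in AwTw mice under 13, with other thresholds, and without each of the 45 mice. Removing a length and GC trend and leaving out both mice farthest on the first residual component were settings chosen after seeing the data. No paired analysis was possible because the labels give mice no replicate numbers that match between groups.

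In the pooled comparison (8 higher, 2 lower), 0 members were higher and 0 lower in batch 0 alone, with the first residual component as a covariate, without both far mice, and at a threshold of 0.01. Higher members numbered 5 after quantile normalization (30.4% of all genes passed in either direction). Lower members numbered 5 in batch 1 alone (40.9%), 1 with the length and GC trend removed (13.4%), and 5 at a threshold of 0.1. The shares of all genes at the thresholds of 0.01 and 0.1 are not given here, so these counts have no background. Atg4d reversed to -0.05 in batch 0. Without 1 mouse, 5 to 10 were higher and 1 to 5 lower, in total 6 without replicate 3 of AwT+/TWD (18% of all genes called) or replicate 3 of AwTw/TWD (17.4%) and 14 without replicate 4 of AwT+/TWD (36.8%), against 29.4% with all mice.

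In AwTw mice (3 higher, 1 lower), 0 were higher and 0 lower in batch 0 alone, after quantile normalization, without a mean trend, with the component or the label prefix as a covariate, with only the groups compared, with the length and GC trend removed, without both far mice and at a threshold of 0.01. In these fits at the 0.05 threshold 0 of all genes passed, except 1 gene with only the groups compared, against 9.35% in the main fit. Counts were 6 higher and 3 lower in batch 1 alone (25% of all genes passed) and 5 and 2 among genes above the 25th percentile (23.9%). With the choroid plexus score 2 were lower (15.6% of all genes passed). At a threshold of 0.1 counts were 8 and 5, and the share of all genes there is not given here. Without 1 mouse, 0 to 9 were higher and 0 to 5 lower, with 0% to 38.2% of all genes called. In batch 0, Map1lc3a and Sqstm1 had -0.01 each and Atg101 -0.12, from only 2 STD and 2 TWD mice. The median of the members, 0.10, became -0.01 in batch 0 and 0.01 with the component. In batch 1 the median became 0.08 for diet in A+Tw mice (from -0.02) and 0.03 for A+ against Aw (from -0.03). The cause of these changes was not tested, except that single batches and left-out mice reduce the samples. In the other comparisons the count of called members stayed at 0 where it was 0.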
